A study of Mus musculus with 15 samples.

Results

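Serpins are a superfamily of proteins that share one fold, and most of them are suicide inhibitors of serine proteases. The protease cuts an exposed loop of the serpin, the loop inserts into the body of the molecule, and the protease is left distorted and covalently trapped. The liver secretes many of them into plasma, where they restrain clotting, fibrinolysis, complement and the elastase of neutrophils, and several family members have taken up other work as hormone carriers or chaperones. In the mouse the family has expanded by tandem duplication into 3 large clusters, and the number of Serpina1 genes, which encode the antitrypsin of plasma, differs between strains.

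The Serpin genes were taken as all autosomal genes of the array whose design name is Serpin followed by a family letter from a to i and a number. There were 38 such genes of 19948 autosomal gene names, represented by 62 probes of 40726 autosomal probes. The rule did not use any measured value. No filter on dim probes was applied, so all 62 were tested, and 61 of them were well above background in both channels on all 15 arrays. The exception was the first probe of Serpinb11. Of 62 protein-coding autosomal Serpin genes in the gene table for GRCm38.p6, the array named 38, and Serpina1a to Serpina1e and Serpind1 were not among them. A cluster was the largest run of Serpin probes on a chromosome with neighbours no more than 2 Mb apart. The Chr12 cluster held 17 probes of 11 genes, the Chr13 cluster 16 probes of 10 genes and the Chr1 cluster 15 probes of 8 genes. The remaining 14 probes covered 9 genes elsewhere, of which Serpine2 and Serpinc1 also lie on Chr1.

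Genomic DNA was measured by array comparative genomic hybridisation, so all values are DNA dosage and none is expression. Tumour DNA came from 5 hepatocellular carcinomas (HCC) and liver DNA from 3 unaffected livers, all from 3 mice whose strain label joins C57BL/6 with a second inbred background, floxed Mad2 and p53 and Albumin-Cre. In these mice Cre under the albumin promoter is meant to recombine floxed alleles in hepatocytes, and liver tissue also holds cells that it leaves unrecombined. All 3 mice carried Mad2 f/f, the floxed form of the spindle checkpoint gene Mad2l1, so both groups share this genotype. Mouse 3151, a female of 16.4 months with p53 f/+, gave HCC 1, HCC 2 and liver 1. Mouse 3760, a male of 13.8 months with p53 f/f, gave HCC 3 and liver 2. Mouse 4033, a male of 13.9 months with p53 f/f, gave HCC 4, HCC 5 and liver 3. Each array set the tissue against wild-type normal liver of the same mixed background from an animal of the opposite sex. HCC 3 was measured on 1 array and each of the other tissues on 2 arrays with the dyes exchanged. Mouse, sex, age, p53 genotype and reference DNA change together between mouse 3151 and the other mice and cannot be told apart.

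The level of a probe, given throughout, is log2 of tissue over reference after each array was centred on its autosomal median, so that 0 stands for the typical autosomal dosage of that tissue. The relative level is the level minus the median level of the chromosome that carries the probe, and shows whether a gene departs from its own chromosome. For the targeted genes, the single Mad2l1 probe lay at -1.22 and -0.71 in the tumours of mouse 3151, at 0.08 in that of mouse 3760 and at 0.53 and 0.59 in those of mouse 4033, and at 0.01, 0.36 and 0.69 in the unaffected livers, so it did not separate tumours from livers. The single Trp53 probe was between -2.07 and -0.19 in the 5 HCC and between -0.88 and -0.07 in the 3 livers. Whether either probe lies inside the floxed segment was not examined here, so these values do not settle the labels. Median signal over background ranged from 3.72 to 7.95 over arrays and channels.

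In the tumours the Serpin clusters mostly lay close to the median of their chromosomes, and no Serpin probe set tumours apart from unaffected livers. For the level, limma called 0 of 62 Serpin probes at an adjusted p under 0.05, against 0% of all autosomal probes, and the smallest adjusted p among the Serpin probes was 0.732. At an unadjusted p under 0.05 the counts were 0 of 62 and 7.4% of all probes. For the relative level limma also called 0 of 62 against 0% of all probes, with 0 of 62 and 1.53% at an unadjusted p under 0.05. In 0 of 62 Serpin probes did the 5 HCC and the 3 livers fail to overlap, for either measure, where 8.52% of all autosomal probes were apart by level and 2.07% by relative level. The median HCC minus liver difference over the Serpin probes was -0.0047 by level and -0.017 by relative level, beside -0.0011 and -0.002 over all autosomal probes. The levels themselves spread widely, with a median range over the 8 tissues of 0.78 for a Serpin probe against 0.672 for any autosomal probe. After subtraction of the chromosome the ranges were 0.421 and 0.429.

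**Figure D1:**
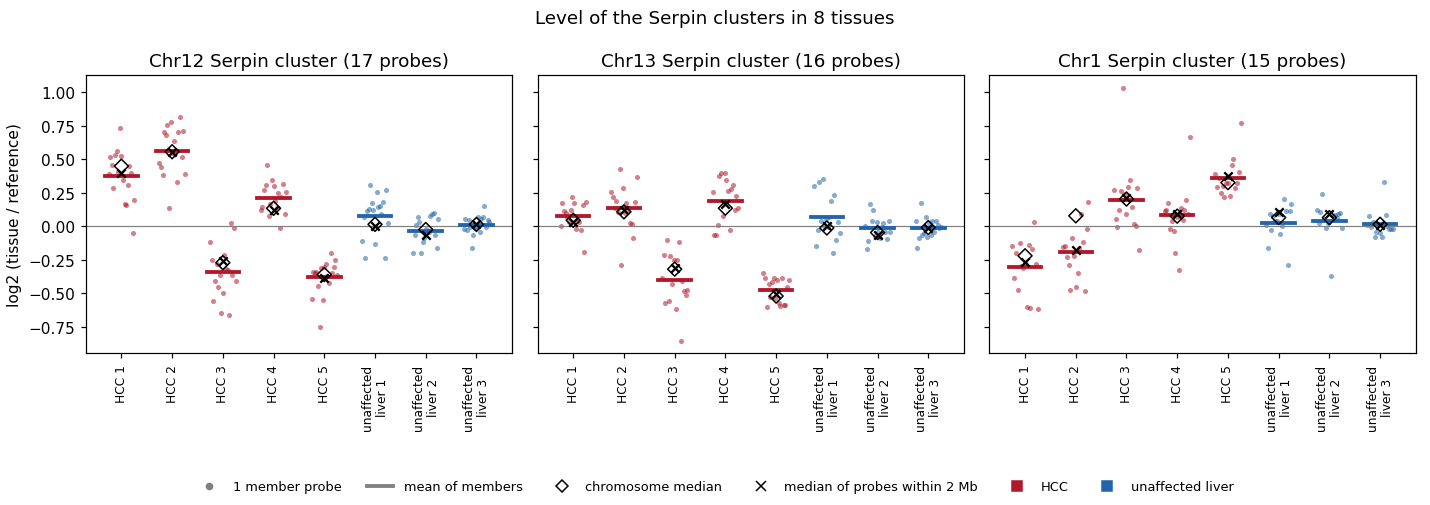
Level (log2 of tissue over reference) of each Serpin probe in the 5 HCC and 3 unaffected livers, with the mean of the cluster's members, the median of the whole chromosome and the median of the probes within 2 Mb. In HCC 2 the Chr1 cluster lies at -0.19, below its chromosome at 0.08 and near its 2 Mb surroundings at -0.18. Each other mean lies within 0.09 of its chromosome.

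The Chr12 cluster carries several genes whose products circulate in plasma, some of them from the liver. Serpina10 encodes the protein Z-dependent inhibitor of coagulation factor Xa, Serpina6 the corticosteroid-binding globulin, Serpina12 the adipokine vaspin, and the Serpina3 genes are the mouse counterparts of antichymotrypsin. The mean level of its 17 probes was 0.38, 0.56, -0.34, 0.21 and -0.38 in the tumours, numbered from HCC 1 to HCC 5. In the unaffected livers it was 0.08, -0.03 and 0.01. HCC 1, HCC 2 and HCC 4 therefore lay above every liver and HCC 3 and HCC 5 below every liver. The agreement between probes was close at both ends, with 17 of 17 probes above 0 in HCC 2 and 0 of 17 in HCC 5. HCC averaged 0.08 ± 0.43 (SD, n = 5) and unaffected livers 0.02 ± 0.06 (SD, n = 3), a difference of 0.07 that an exact permutation test over 56 arrangements did not separate from 0 (two-sided p = 0.768; the smallest p attainable is 0.0179).

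The chromosome lay at similar levels. The median of Chr12 was 0.45, 0.56, -0.27, 0.13 and -0.36 in HCC 1 to HCC 5, so that the mean relative level of the cluster stayed between -0.07 and 0.08 in all 8 tissues. Relative to its chromosome the cluster averaged -0.02 ± 0.06 over the tumours (SD, n = 5) and 0.02 ± 0.04 over the livers (SD, n = 3) (exact permutation test, two-sided p = 0.536). HCC 3 and HCC 5 were scanned on one day with livers 2 and 3, and HCC 1, HCC 2 and HCC 4 on another with liver 1, and the HCC minus liver difference in level was -0.35 within the first day and 0.31 within the second. The part of scan day in this was not tested.

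Among single genes of the Chr12 cluster, the largest differences in relative level were small against their errors. Serpina3b had the largest, at -0.20 ± 0.10 (SE of the limma fit, unadjusted p = 0.0777) for one probe and -0.16 ± 0.12 for the other. Its first probe read -0.29, -0.23, -0.05, 0.12 and -0.06 in HCC 1 to HCC 5 against 0.14, 0.10 and 0.04 in the livers, so HCC 4 lay among the livers. Serpina3n, an acute-phase serpin that binds granzyme B, had a difference of -0.12 ± 0.095 (SE). Serpina3g, an inhibitor of cathepsins in lymphocytes, showed how far neighbouring probes can part, since in HCC 1 one of its probes read -0.50 and the other -0.05. The former was at -0.64 and -0.41 in the 2 dye orientations. The probes of Serpina10 stayed between -0.18 and 0.15 in every tissue, those of Serpina6 between -0.28 and 0.18, and those of Serpina12 between -0.23 and 0.24.

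The Chr13 cluster carries the intracellular clade B serpins that protect cells from their own granule proteases. Serpinb1a encodes the inhibitor of neutrophil elastase, Serpinb6a an inhibitor of cathepsin G, and Serpinb9 the inhibitor of granzyme B by which cytotoxic lymphocytes and their targets guard themselves. The mean level of the 16 probes was 0.07, 0.14, -0.40, 0.19 and -0.48 in HCC 1 to HCC 5 and 0.07, -0.02 and -0.01 in unaffected livers 1 to 3. In HCC 3 and HCC 5 it lay below every liver and 0 of 16 probes were above 0, whereas HCC 1 was level with liver 1. HCC averaged -0.10 ± 0.32 (SD, n = 5) and livers 0.01 ± 0.05 (SD, n = 3), a difference of -0.11 (exact permutation test, two-sided p = 0.571). Within the first scan day this difference was -0.43 and within the second 0.07.

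The median of Chr13 was -0.32 in HCC 3 and -0.52 in HCC 5, near the level of the cluster there. The relative level of the cluster was 0.03, 0.03, -0.08, 0.05 and 0.05 in the tumours and 0.08, 0.03 and -0.00 in the livers. These ranges overlapped (difference -0.02, exact permutation test, two-sided p = 0.696). Serpinb1c had the largest single difference at 0.19 ± 0.09 (SE, unadjusted p = 0.0647 by limma). Its first probe read 0.13, 0.11, 0.10, -0.20 and 0.14 in the tumours and -0.14, -0.12 and -0.15 in the livers, so that HCC 4 was below the livers and the remaining tumours above them. The second Serpinb1c probe gave -0.03 ± 0.09. Serpinb6b gave -0.18 ± 0.09 at one probe and -0.03 ± 0.10 at the other. Serpinb1a lay between -0.06 and 0.31 in all tissues, and Serpinb6a between -0.24 and 0.26. The probes of Serpinb9 lie side by side and read 0.32 and -0.40 in HCC 2, and 0.36 and 0.02 in liver 1.

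The Chr1 cluster holds clade B serpins best known from epithelia. Serpinb5 encodes maspin, a non-inhibitory member studied as a suppressor of tumour invasion, Serpinb2 an inhibitor of the plasminogen activator urokinase, Serpinb13 an inhibitor of lysosomal cathepsins, and Serpinb8 an inhibitor of furin. The mean level of its 15 probes was -0.31, -0.19, 0.20, 0.08 and 0.36 in HCC 1 to HCC 5. The unaffected livers read 0.03, 0.04 and 0.01. Both tumours of mouse 3151 lay below every liver and the 3 tumours of the male mice above every liver. HCC averaged 0.03 ± 0.28 (SD, n = 5) and livers 0.03 ± 0.01 (SD, n = 3), and the difference was 0.0008 (exact permutation test, two-sided p = 0.982).

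HCC 2 was the tissue in which a cluster departed most from its chromosome. There the Chr1 cluster had a relative level of -0.27, with 13 of 15 probes below the chromosome median, whereas the relative level was between -0.09 and 0.04 in each of the other 7 tissues. The 36 autosomal probes within 2 Mb on either side lay at a median of -0.18 in HCC 2, beside 0.08 for the whole chromosome. Measured against this neighbourhood the cluster was at -0.02. Serpinb10 at -0.56, Serpinb13 at -0.55 and Serpinb7 at -0.53 gave its lowest probes, picked out after their values were seen. Far away on the same chromosome, Serpinc1 read -0.36 and the probes of Serpine2 read -0.01 and 0.37. The HCC minus liver difference of the relative level of the cluster was -0.04 (exact permutation test, two-sided p = 0.768), and 0.02 against the probes within 2 Mb. Of its genes Serpinb13 had the largest difference, at -0.21 ± 0.10 for one probe (SE, unadjusted p = 0.0584 by limma) and -0.06 ± 0.14 for the other. One Serpinb8 probe was picked out after its values were seen. It spread widely among the tumours, at -0.40, 0.10, -0.38, 0.59 and 0.44 against 0.10, -0.08 and -0.04 in the livers. The other Serpinb8 probe stayed between -0.10 and 0.08.

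**Figure D2:**
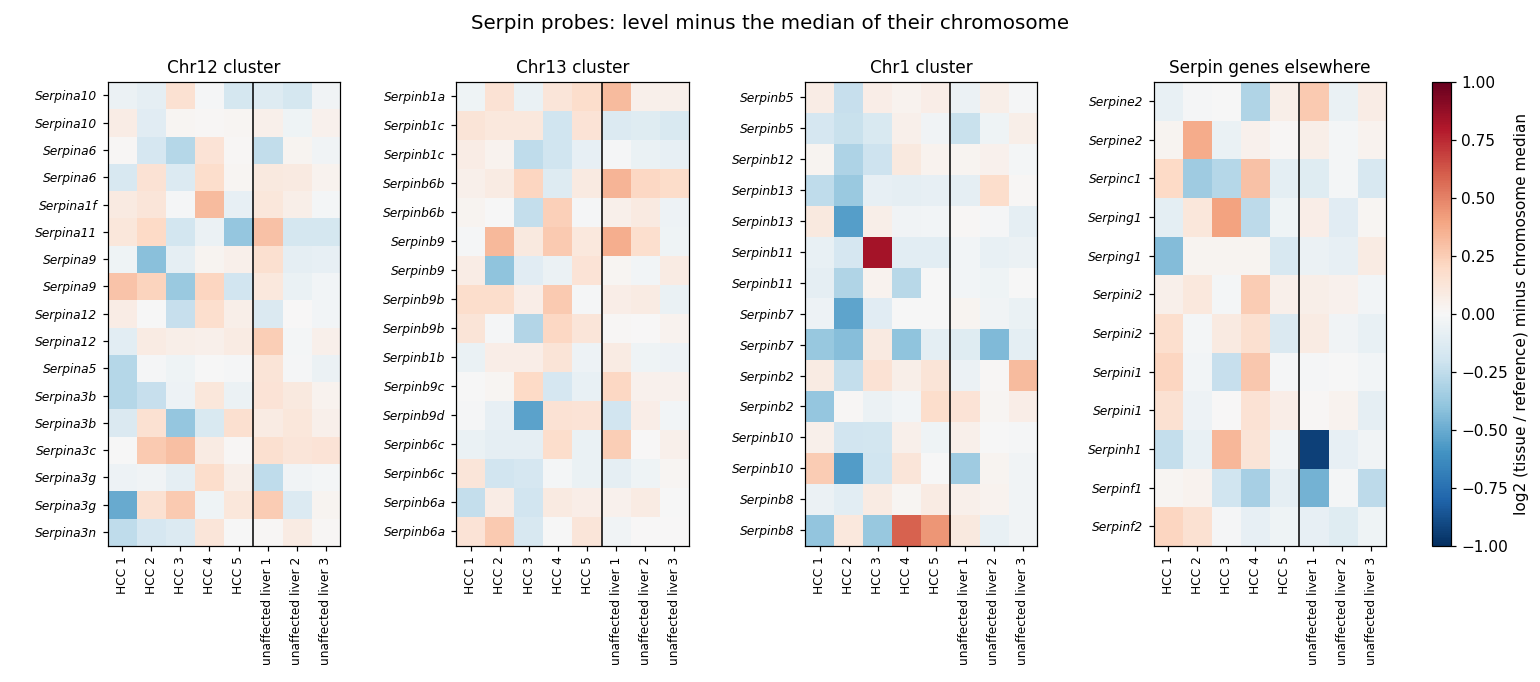
Relative level (log2 of tissue over reference minus the chromosome median) of the Serpin probes, by cluster and in order of position and without 1 gene that is not reported here, with the 5 HCC left of the line and the 3 unaffected livers right of it. Single cells reach 0.83 for Serpinb11 in HCC 3 and -0.93 for Serpinh1 in unaffected liver 1, and HCC 2 is low along most of the Chr1 cluster.

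Single probes were also set against the median of their chromosome in each tissue. A relative level beyond 0.3 in either direction was reached by 12 of 62 Serpin probes in HCC 2 (19.4%, against 14.8% of all autosomal probes), by 8 in HCC 3 (12.9% against 15.6%), by 5 in HCC 1 (8.06% against 12.7%), by 4 in HCC 4 (6.45% against 13.6%) and by 3 in HCC 5 (4.84% against 5.08%). In the livers it was reached by 7 in liver 1 (11.3% in both sets), and by 1 each in liver 2 (1.61% against 2.62%) and liver 3 (1.61% against 2.74%). There were 33 of 62 Serpin probes, 53.2%, that reached 0.3 in no tissue, against 53.8% of all autosomal probes. The 12 probes of HCC 2 include several of the Chr1 cluster, which was low there together with the probes around it.

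The highest value was that of the first Serpinb11 probe in HCC 3, at 0.83, while its other readings lay between -0.17 and -0.03. This is the Serpin probe that was not well above background on every array. HCC 3 was measured in 1 dye orientation only. In that orientation the probe read -0.32, -0.32, 0.05 and 0.30 in the tumours other than HCC 3, in order of number, and -0.13, 0.32 and -0.02 in the livers. With the dyes exchanged it read 0.17, -0.04, -0.25 and -0.50 in those tumours and 0.07, -0.47 and -0.09 in the livers. The orientations thus parted most in HCC 5 and liver 2, and the higher one was not the same in every tissue. The second Serpinb11 probe, next along the chromosome, read 0.04 in HCC 3. The lowest value was that of Serpinh1, the collagen chaperone of the endoplasmic reticulum, at -0.93 in unaffected liver 1, where its orientations gave -1.56 and -0.32. The other 7 tissues lay between -0.24 and 0.34 for it, and its HCC minus liver difference of 0.37 ± 0.20 (SE, unadjusted p = 0.0961 by limma) was read with that liver included. The sequences of these probes are shown because they gave the highest and the lowest relative level. They are written as the array files give them, and neither the genome build nor the strand is stated there. Serpinb11 is at 1:109267383-109267442 and Serpinh1 at 7:106499582-106499641.
Serpinb11, first probe: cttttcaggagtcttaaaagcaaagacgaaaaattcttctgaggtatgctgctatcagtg
Serpinh1: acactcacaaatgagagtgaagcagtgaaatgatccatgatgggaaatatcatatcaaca

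The plasma and tissue serpins outside the clusters followed the same course. Serpinc1 (antithrombin, the main brake on thrombin) had a relative level between -0.36 and 0.29 over the tissues. Serpinf2, which inhibits plasmin, lay between -0.12 and 0.21, and Serpinf1, an angiogenesis-inhibiting member with no protease target, between -0.47 and 0.04. The HCC minus liver difference was 0.13 ± 0.09 for Serpinf2 and 0.14 ± 0.12 for Serpinf1 (SE). Serping1, which inhibits the first proteases of the complement cascade, read 0.40 at one probe in HCC 3 and -0.43 at the other in HCC 1, and in neither case did its partner probe follow, at 0.03 and -0.10. Serpine2, a thrombin inhibitor at cell surfaces, lay between -0.30 and 0.37, and Serpini1, the neuronal inhibitor of tissue plasminogen activator, between -0.23 and 0.27.

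The array files also allowed the Serpin genes to be compared between mice. A moderated F test of limma on the relative level, with mouse as the factor and 40726 probes tested, called 0 of 62 Serpin probes, against 1.5% of all autosomal probes. At an unadjusted p under 0.05 there were 3 of 62 (Serpina11, and 1 probe each of Serpina9 and Serpinb8, listed after their values were seen), against 6.6% of all probes. The smallest adjusted p was that of Serpina11, at 0.219. When unaffected liver 2 was left out the test called 1 Serpin probe, the first of Serpinb11 (smallest adjusted p 0.0109), since mouse 3760 is then represented only by the high value of HCC 3. That probe is the one that was not well above background on every array.

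Serpina11 borders the stretch of Chr12 in which the gene table places the Serpina1 genes, and a probe in this stretch had the smallest p of all autosomal probes in the comparison of mice. Between Serpina1f and Serpina11 the table lists 12 neighbours, which are Serpina1b, Serpina1d, Serpina1a, Serpina1c, Serpina1e and 7 pseudogenes. The array carries 2 probes there, named by position only, which are not Serpin probes by the rule above and were singled out after their values were seen. The first lies 246 kb after the Serpina1f probe with no probe in between, the second 22 kb further, and Serpina11 follows after another 24.3 kb. The 4 probes are shown because the values change from one to the next. Their positions, as the files give them, are 12:104932120-104932179, 12:105178127-105178186, 12:105200160-105200219 and 12:105224500-105224552.
Serpina1f: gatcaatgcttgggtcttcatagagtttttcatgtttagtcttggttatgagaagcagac
First probe of the gap: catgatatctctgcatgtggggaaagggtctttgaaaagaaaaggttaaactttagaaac
Second probe of the gap: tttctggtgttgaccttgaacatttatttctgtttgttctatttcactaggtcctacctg
Serpina11: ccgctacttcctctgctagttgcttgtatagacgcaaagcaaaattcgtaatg

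The first probe of the gap had a relative level of 2.66, 2.97 and 3.02 in HCC 1, HCC 2 and liver 1 of mouse 3151. In HCC 3 and liver 2 of mouse 3760 it was at -3.30 and -3.30, and in HCC 4, HCC 5 and liver 3 of mouse 4033 at -2.74, -2.76 and -3.01. All tissues of the female thus lay far above the reference and all tissues of the males far below it, with tumour and unaffected liver of one mouse alike. The mean of mouse 3151 exceeded that of the others by 5.90, the adjusted p of the limma F test was 7.45e-09, and its p ranked 1 of 40726 probes. By range over the livers it ranked 3. The HCC minus liver difference at this probe did not pass the test (0.46 ± 1.87, SE, limma adjusted p = 1.00). The second probe of the gap read 0.44, 0.28 and 0.49 in mouse 3151 and from -0.59 to -0.12 in the males. There the mean of mouse 3151 exceeded that of the others by 0.76, and the limma F test over the 3 mice gave an adjusted p of 0.0161. This second probe lost the call with either dye orientation alone, without HCC 1 or without liver 1, where its adjusted p was 0.105, 0.143, 0.0808 and 0.0836. Serpina11 itself read 0.11, 0.20 and 0.30 in mouse 3151 and from -0.39 to -0.06 in the males. Its mean in mouse 3151 exceeded that of the others by 0.40, and the F test over the 3 mice did not call it. Serpina1f, on the other side, read between -0.08 and 0.32 with the mice overlapping.

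**Figure D3:**
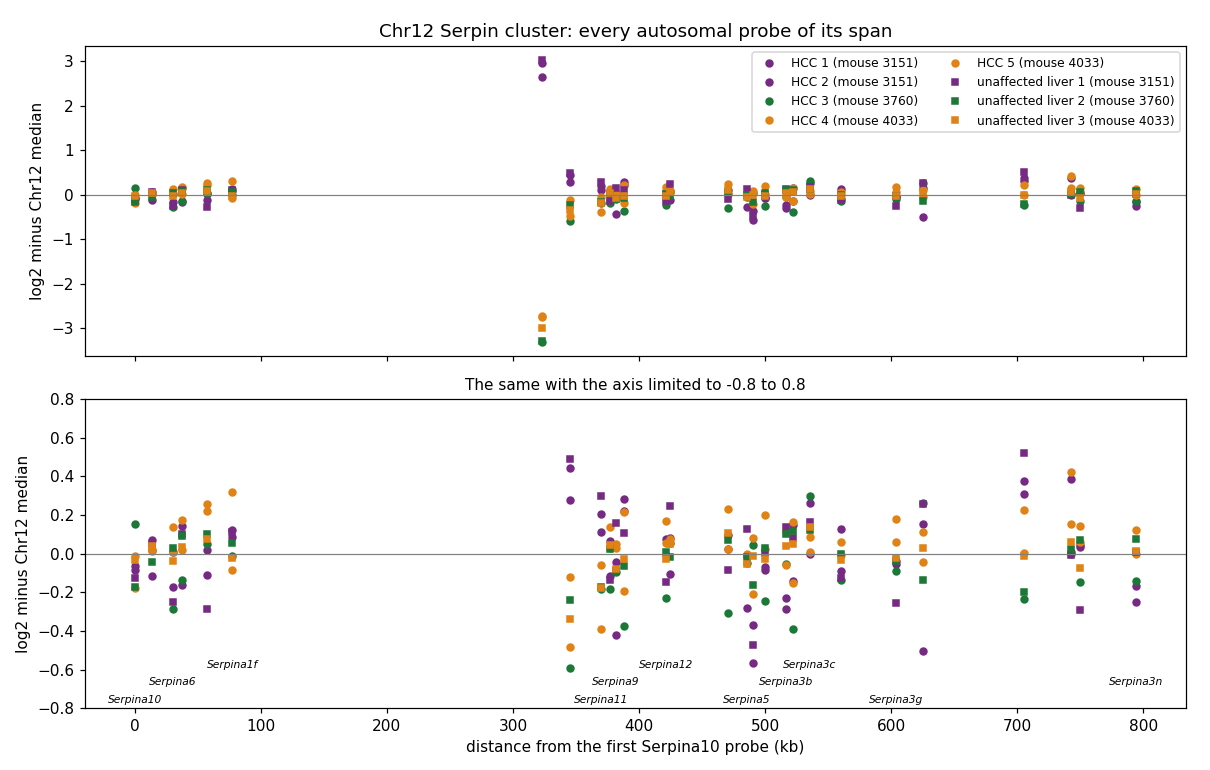
Relative level (log2 minus the Chr12 median) of the 28 autosomal probes in the span of the Chr12 cluster against distance from the first Serpina10 probe in kb, coloured by mouse, with HCC as circles and unaffected livers as squares. The first probe of the gap between Serpina1f and Serpina11 lies near 3 in mouse 3151 and near -3 in mice 3760 and 4033, while the named Serpin probes stay between -0.50 and 0.32.

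The signals of the separate channels show which DNA was bright at the first probe of the gap. Mean signal over local background was 4.92 to 13.2 (median 9.13) for the tissue DNA on the 6 arrays of mouse 3151, but 1.78 to 2.81 (median 1.94) for the male reference beside it. On the 9 arrays of the male mice the tissue gave 1.41 to 4.65 (median 2.24) and the female reference 4.55 to 11.7 (median 6.53). Tissue was brighter than reference on 6 of 6 arrays of mouse 3151 and dimmer on 9 of 9 arrays of the others. On all 15 arrays the female DNA was thus brighter than the male DNA hybridised with it, in both dye orientations, although across arrays the lowest female value (4.55) lay just under the highest male value (4.65). Only 12 of 15 arrays had both channels well above background at this probe, so the size of the ratio is uncertain, and with another background correction (normexp) the difference between mice was 3.57. At the second probe tissue exceeded reference on 6 of 6 arrays of mouse 3151 and fell short of it on 7 of 9 arrays of the others. Whether sex, strain background or another property of these animals and their references goes with the difference was not tested.

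**Figure D4:**
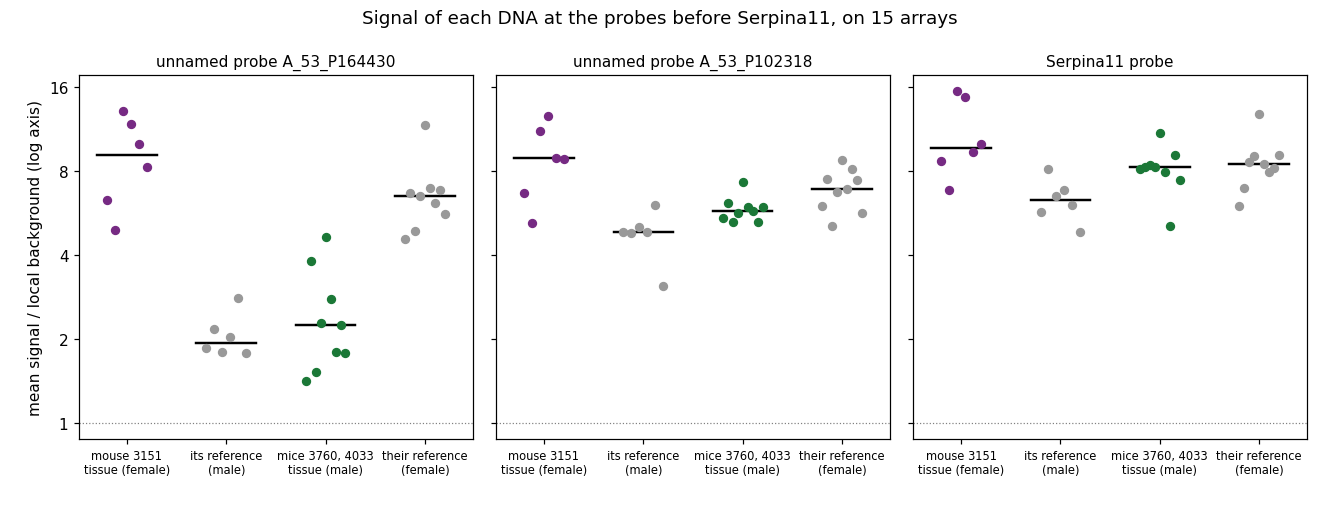
Mean signal over local background (log axis) of tissue and reference DNA at the probes between Serpina1f and Serpina11 and at Serpina11, with 1 point per array and the median as a bar. At the first probe the tissue of mouse 3151 (median 9.13) and the reference of the other mice (6.53) are bright, and the reference of mouse 3151 (1.94) and the tissue of the other mice (2.24) are dim.

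Within the spans of the clusters, of 28 autosomal probes in the span of the Chr12 cluster the F test called 2, both in the gap, and of 25 in the span of the Chr13 cluster and 22 in that of the Chr1 cluster it called 0 each, against 1.5% of all autosomal probes. At an unadjusted p under 0.05 there were 7, 0 and 1 probes in these spans, against 6.6% of all. Not all of those on Chr12 lie at the gap. Beyond Serpina11, a non-Serpin probe read 0.31, 0.38 and 0.52 in mouse 3151 and from -0.23 to 0.22 in the males (limma F test, adjusted p = 0.0538). Another went the opposite way, at -0.37, -0.56 and -0.47 against -0.21 to 0.08 (adjusted p = 0.210). Both were picked out after their values were seen. The longest run that any Serpin probe shared with another Serpin probe, on either strand, was 13 bases. With any other autosomal probe it was 18 bases. GC content was 30% to 45.1% with a median of 36.7%, the same median as over all autosomal probes.

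The proteases and partners on which serpins act were examined in the same fits. Of a list of 30 genes the array named 25, with 36 probes, among them Plau and Plat (the plasminogen activators), Plg (plasminogen), F2 (prothrombin), Ctsg (cathepsin G) and Gzmb (granzyme B). Limma called 0 of 36 by level, 0 of 36 by relative level and 0 of 36 between mice, against 0%, 0% and 1.5% of all autosomal probes. At an unadjusted p under 0.05 there were 4, 0 and 2, against 7.4%, 1.53% and 6.6%. The HCC minus liver difference in level ran from -0.50 for Masp2, a protease of the complement lectin pathway that Serping1 restrains, to 0.48 for Tmprss6, a hepatocyte protease of iron control, with a median of 0.06. Relative to their chromosome, Chr15, the Tmprss6 probes differed by only 0.01 and 0.008. The lowest value came from 1 Masp2 probe that read -1.64 in HCC 4 and from -0.38 to 0.08 in the other tumours, and the second Masp2 probe differed by -0.12 by level and 0.07 by relative level. That second probe spread widely in level, at -1.80 in HCC 1, -1.67 in liver 1 and -0.83 in HCC 4. In the other tissues it read between -0.54 and 0.08, and its unadjusted p between mice was 0.0034 (limma F test). By relative level the list ran from -0.31 for the first Masp2 probe to 0.31 for Ctsl, with a median of 0.01.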

How the data were processed

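The scanner files of 15 two-colour Agilent 44K arrays were used. The intensity values were made by the authors with Feature Extraction 9.1.3.1 and, per the file headers, are background-subtracted, detrended and dye-normalised. The deposited log10 ratios equalled the log ratios that Feature Extraction wrote beside these intensities, sign turned on dye-swap arrays. Log2 ratios of tissue to reference were taken from the intensities, control and outlier spots were dropped, and each array was centred on its autosomal median, without loess. Both dye orientations of a DNA were averaged to 1 replicate. HCC and liver probes were compared with limma 3.58.1 in R 4.3.3 (lmFit, eBayes, Benjamini-Hochberg over 40726 probes), and mice by its moderated F test. Cluster means were compared by an exact permutation test. P-values measure the spread between tissues, several of which share an animal. Tissues of a mouse pair the groups, and probe deviations correlated with r of 0.168 to 0.396 within a mouse and -0.327 to 0.112 between mice.

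The members and lists were chosen with earlier results of these data known. Named were Serpin probes passing a test, in each cluster and among the rest the 3 with the largest range over livers and the 3 with the largest HCC minus liver difference of relative level, and a fixed list of plasma and clade B serpins. The values of 1 gene are not reported here. Neighbours came from the gene table for GRCm38.p6, names and order only, since the files name no build. The steps were tested on simulated data. Python 3.11.15, numpy 2.4.6, pandas 2.3.3 and matplotlib 3.10.9 were used.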

Additional observations from a re-analysis of the deposited data

Results flagged for a closer look

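Of 49 results examined, 8 had an HCC far from the other 4 by the Dixon criterion at the 95% level. Chance alone meets it in about 1 group of 20, but that share does not apply to this list. Some of the probes were named for a large HCC minus liver difference in the same data, to which 1 extreme tumour can add. These were the Chr13 cluster in HCC 3 (relative level -0.0839), Serpine2 in HCC 2 (0.37), Serpinb5 in HCC 2 (-0.23), Serpinb11 in HCC 3 (0.83), Serpinb2 in HCC 2 (-0.24), Serpina12 in HCC 1 (-0.11), Serpinb1c in HCC 4 (-0.20) and Serpinb6c in HCC 4 (0.18). The Serpinb11 probe was not well above background on every array and HCC 3 had 1 array. Each single-gene value belongs to 1 of the probes of that gene. The Serpinb5 and Serpinb2 values in HCC 2 lie near the relative level of the whole Chr1 cluster there (-0.27), which was low together with the probes around it.

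In 4 of the 49 results every tumour of the female mouse moved one way against its own liver and every tumour of the male mice the other. How many would do so by chance was not worked out. For the level of the Chr1 cluster the female mouse averaged -0.28 and the male mice 0.19, a difference of -0.47. For its relative level the difference was -0.16, with -0.05 in HCC 1 and -0.23 in HCC 2 against their own liver. One Serpina12 probe differed by -0.29 and one Serpinb5 probe by 0.10. Some of the moves were close to none, at 0.0027 for Serpinb5 in HCC 2 and 0.0021 for Serpina12 in HCC 4. The relative level of the Chr1 cluster moved by 0.006 in HCC 4. The difference was not tested, since these results were picked for opposite directions and the female side is 2 tumours of 1 mouse set against 1 liver. Sex, age, p53 genotype and animal coincide here and cannot be told apart.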

How the results depend on the processing

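No cluster difference passed the exact test in the settings that had one. The block by mouse cannot give a p below 0.25, and the slide and scan-day values carry no test, so these say nothing about stability. The slide values average only the 3 slides that held both groups. They leave out HCC 1 and HCC 2, which lay on slide 4 without a liver, and on slide 3 they set HCC 4 against liver 1 of another mouse. They are thus no adjustment of the same set of tissues. For the Chr12 level (0.07) the sign turned with the replicate block by mouse (-0.0041), with slide (-0.188) and with scan day, which was added after seeing the data (-0.0221). For the Chr13 relative level (-0.02) it turned with dye-swap arrays only (0.0264) and the median over members (0.0102). For the Chr1 level (0.0008) it turned with centring on the mode (-0.0501), forward arrays only (-0.0276), probes well above background (-0.0117) and the median over members (-0.0077). For the Chr1 relative level (-0.04) it turned against the probes within 2 Mb (0.0233) and with slide (0.0328). Without a change of sign, the Chr13 level (-0.11) moved to -0.244 with slide, -0.18 with scan day, -0.16 with the block and -0.0166 with dye-swap arrays only, the Chr12 level to 0.176 with dye-swap arrays only and 0.0175 with centring on the mode, and the Chr1 level to 0.186 with slide. Leaving out 1 tissue at a time moved the level differences from -0.0518 to 0.184 (Chr12), from -0.18 to -0.0137 (Chr13) and from -0.0825 to 0.0843 (Chr1), and the relative ones from -0.0564 to -0.00911, from -0.0399 to 0.00371 and from -0.0685 to 0.00838. Values of single omissions that turned the sign were -0.00508 and -0.0518 for Chr12 without HCC 1 or HCC 2, 0.00371 and 0.000435 for relative Chr13 without HCC 3 or liver 1, -0.0418, -0.0125, -0.0825 and -0.00593 for Chr1 without HCC 3, HCC 4, HCC 5 or liver 3, and 0.00838 for relative Chr1 without HCC 2. The causes were not tested. Serpin calls stayed at 0 in 53 of 54 alternative fits, the replicate block included, and between mice they ranged from 0 to 1 on leaving out a tissue. Calls over all probes between mice fell from 609 to 368 with forward arrays and 291 with dye-swap arrays alone. The number of arrays and tissues limits the precision.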
